A study of Mus musculus with 8 samples.

Results

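The 7 genes of the NMDA receptor subunits (Grin1, Grin2a, Grin2b, Grin2c, Grin2d, Grin3a and Grin3b) were followed in hippocampal poly(A) RNA of T29-1 Cre mice and wild type (WT) mice. They were taken by name from a table of 46078 gene rows, in which each has 1 row. 6 of the 7 passed the filter on low counts, which left 15996 rows for testing, and Grin3b did not. The T29-1 Cre mice are Cre+/- for a transgene, Tg(Camk2a-cre)T29-1Stl. In it, Cre recombinase is driven by the Camk2a promoter, active in excitatory neurons of the forebrain. The WT mice do not carry the transgene, and the labels name no floxed gene in either genotype. Mice of both genotypes were 9 weeks old, on C57BL/6J, with 4 libraries per genotype. T29-1 is a single transgenic line, so that the insertion itself and the Cre protein cannot be told apart here. The series title concerns ectopic synaptotagmin 2 in this line, and the comparison below asks whether the receptor's genes differ between carriers and non-carriers. Nothing in the labels ties replicates to separate animals, and the p-values rest on the spread among these libraries alone, which may be technical.

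NMDA receptors are cation channels. Those with GluN2 subunits open only when glutamate and a co-agonist, glycine or D-serine, are bound and depolarisation has driven magnesium out of the pore. Each NMDA receptor contains GluN1 (encoded by Grin1), which binds the co-agonist. With it are GluN2 subunits (Grin2a to Grin2d), which bind glutamate, or GluN3 subunits (Grin3a and Grin3b), which bind glycine. GluN3 subunits lower calcium entry and magnesium block. In the hippocampus the calcium that enters through these channels starts long-term potentiation, in which the kinase encoded by Camk2a docks on the GluN2B tail.

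The libraries held 23358289 to 30882631 counts, and WT replicate 4 stood apart from the other 7 along principal component 1 of log2 CPM (CPM being read counts scaled to library size), with a score of -33.4 against -0.69 to 8.74. All 6 excitatory neuron markers and all 10 GABAergic interneuron markers were detected, with summed levels of 3389 to 3705 CPM in T29-1 Cre and 3417 to 3953 CPM in WT for the first list. The interneuron list summed to 1139 to 1213 CPM in T29-1 Cre and 1134 to 1169 CPM in WT. Of the cerebellar granule cell markers, Gabra6 had at most 1 count and Barhl1 at most 2 counts in any library, and Cbln3 had 8 to 20. The choroid plexus list summed to 24.7 to 51.4 CPM in T29-1 Cre and 21.8 to 27.1 CPM in WT, with 0 of its 3 tested genes called and a median log2 fold change of 0.89. Its gene Ttr, at 11.3 ± 11.1 CPM in T29-1 Cre and 2.08 ± 1.54 CPM in WT (SD, n = 4 each), was called with no filter (2.39, edgeR adjusted p = 0.000991) and with the replicate number as a block (2.30, adjusted p = 0.0144). The list's part in the members' values was not tested. In bulk RNA, fewer cells of a type and less RNA per cell cannot be told apart.

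The subunit genes are related by descent, so the first question is whether a read of one could be counted for another. Over whole transcripts (the longest coding transcript of each gene in GENCODE M21, GRCm38), the longest identical run between any pair of the 7 was 34 bases, between Grin2b and Grin2c. The other 20 of the 21 pairs shared runs of 13 to 32 bases, against reads of 150 bases at each end of a fragment. No exact match between these transcripts is as long as a read.

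Neighbouring genes touch some of the members. Grin1 (ENSMUSG00000026959.13, chromosome 2 from 25291181 to 25319187, minus strand) shares 1307 exon bases with its antisense gene Grin1os, which had 1 to 20 counts per library against 16362 to 21101 for Grin1. Grin3b (ENSMUSG00000035745.9, chromosome 10 from 79970715 to 79977190, plus strand) shares 1059 exon bases with Tmem259 on the other strand, which had 2585 to 3505 counts against 4 to 12 for Grin3b. The strand setting of the counting is not given in the sources used here, so counts in these overlaps, and the few reads of Grin3b above all, are uncertain. Grin2d (ENSMUSG00000002771.12, chromosome 7 from 45831883 to 45878378, minus strand) shares 643 exon bases with the antisense gene Gm45441, for which no counts are given. Kdelr1 on the other strand (931 to 1276 counts) overlaps Grin2d but shares 0 exon bases with it. Grin2c (ENSMUSG00000020734.13, chromosome 11 from 115249169 to 115267243, minus strand) overlaps only a microRNA gene with 0 counts.

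The 3 remaining members are long genes. Grin2a (ENSMUSG00000059003.12) spans 428 kb of chromosome 16, from 9567898 to 9995560, with no other annotated gene on it. Grin2b (ENSMUSG00000030209.14) spans 460 kb of chromosome 6, from 135713233 to 136173511, and its antisense neighbours had at most 25 counts per library. Grin3a (ENSMUSG00000039579.15) spans 184 kb of chromosome 4, from 49661611 to 49845744, and holds Ppp3r2 (4 to 15 counts) in an intron. All 3 are on the minus strand.

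Levels between genes were compared as CPM per kb of merged exons, that is, of all annotated exon bases of a gene. Grin1 had the highest level per kb, at 71.6 ± 2.57 in T29-1 Cre and 72.9 ± 4.81 in WT (SD, n = 4 each). Grin2b followed at 31.1 ± 2.45 and Grin2a at 23.5 ± 1.07 CPM per kb in T29-1 Cre, against 29.1 ± 5.39 for Grin2b and 22.8 ± 4.59 for Grin2a in WT. Grin2c was at 14.6 ± 1.73 CPM per kb in T29-1 Cre and 14.5 ± 1.34 in WT. The low end held Grin3a, at 5.23 ± 0.255 in T29-1 Cre and 4.77 ± 0.492 in WT, then Grin2d, at 3.69 ± 0.0677 in T29-1 Cre and 3.69 ± 0.0667 in WT. Grin3b was far below, at 0.0791 ± 0.0414 CPM per kb in T29-1 Cre and 0.0668 ± 0.0186 in WT.

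This order (Grin1, Grin2b, Grin2a, Grin2c, Grin3a, Grin2d, Grin3b) was the same in each of the 8 libraries. The level per kb of Grin1 was 2.13 to 3.73 times that of Grin2b in the same library. Grin2b and Grin2a had ranges over libraries that overlapped, 21.2 to 33.5 and 15.9 to 25.5 CPM per kb, but within a library Grin2b was 1.22 to 1.39 times Grin2a. Grin2a and Grin2c also overlapped, because Grin2a in WT replicate 4 (15.9 CPM per kb) was below the highest Grin2c value (16.1). Grin2d was 26.6 to 82.8 times Grin3b, which had only 4 to 12 reads. The order held in all 8 libraries with the length of the longest coding transcript. With the coding length alone the order of the means held, but Grin3a stood above Grin2c in T29-1 Cre replicate 4 (Grin2c was the higher in 7 of 8 libraries). The coding length divided the counts of the whole gene, not those of its coding part alone. The distances moved: Grin1 was on average 5.40 times Grin2b with the transcript length and 1.48 times with the coding length, against 2.46 with merged exons. In CPM without length, Grin2b (747) stood above Grin1 (701 on average over 8 libraries).

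**Figure D1:**
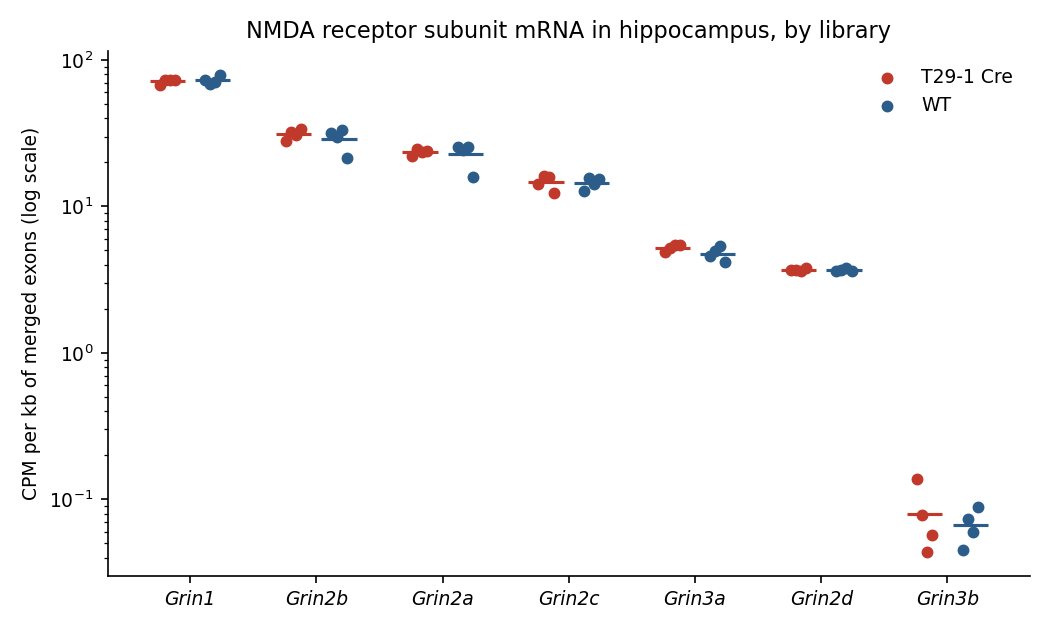
CPM per kb of merged exons (log scale) of the 7 subunit genes, with 1 point per library, T29-1 Cre in red to the left of WT in blue, and lines at the mean of 4 libraries. The libraries of the genotypes overlap for every gene, and the genes span from about 72 CPM per kb for Grin1 to under 0.14 for Grin3b.

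No difference between the genotypes in the 6 tested subunit genes passed the test. edgeR's quasi-likelihood test called 0 of 6 at an adjusted p under 0.05, with 0 at an unadjusted p under 0.05, and DESeq2 and limma-voom each gave the same counts of 0 and 0. Over all tested genes, 0.00625% were called (1 gene, St6gal2, higher in T29-1 Cre) and 2.43% had an unadjusted p under 0.05 (4.2% without WT replicate 3). For 0 of the 6 members did the libraries of the genotypes fail to overlap, against 1.81% of all tested genes. The members' log2 fold changes were above 0 for 4 and below 0 for 2, with a median of 0.03 beside -0.00075 for all tested genes.

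Grin1, the subunit that every NMDA receptor needs, had 657, 706, 707 and 709 CPM in T29-1 Cre, against 710, 660, 689 and 770 CPM in WT. The lowest library was T29-1 Cre replicate 1 and the highest WT replicate 4, with the others interleaved. The log2 fold change was -0.03 (SE 0.0531, edgeR adjusted p = 0.998), with a 95% interval of 0.908 to 1.06 for the fold. With all 8 libraries, a difference of 10% or more in either direction lies outside that interval. This did not hold with every library left out. Without WT replicate 2 the 95% interval of the log2 fold change was -0.178 to 0.0638, which includes a 10% decrease.

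Grin2a, whose subunit replaces much of GluN2B at forebrain synapses after birth and gives faster currents, had 396, 440, 421 and 431 CPM in T29-1 Cre, against 453, 438, 457 and 285 CPM in WT. WT replicate 4 was the lowest of all, below the T29-1 Cre libraries, and the other WT libraries (438 to 457 CPM) overlapped only the top of the T29-1 Cre range (396 to 440 CPM). The log2 fold change was 0.05 (SE 0.114, edgeR adjusted p = 0.998; fold 0.873 to 1.22). Without WT replicate 4 its sign turned, to -0.09 (SE 0.0413, unadjusted p = 0.0476, adjusted p = 1.0).

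Grin2b, whose subunit dominates before birth and binds the kinase of Camk2a, had 693, 805, 761 and 832 CPM in T29-1 Cre, against 792, 742, 827 and 528 CPM in WT. Again WT replicate 4 was lowest and the other libraries overlapped. The log2 fold change was 0.10 (SE 0.109, edgeR adjusted p = 0.998; fold 0.909 to 1.26), and -0.03 (SE 0.0568) without WT replicate 4.

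Grin2c, known best from cerebellar granule cells, had 71.6, 81.0, 80.0 and 62.2 CPM in T29-1 Cre, against 63.8, 78.9, 71.8 and 77.2 CPM in WT. Both genotypes held a library near 63 CPM and others near 80 CPM. The log2 fold change was 0.02 (SE 0.0845, edgeR adjusted p = 0.998; fold 0.891 to 1.15). Its sign turned without T29-1 Cre replicate 2 (-0.03), T29-1 Cre replicate 3 (-0.03) or WT replicate 1 (-0.04).

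Grin2d, which in hippocampus is mainly a gene of interneurons, was nearly level over the 8 libraries. It had 24.4, 24.5, 24.2 and 25.2 CPM in T29-1 Cre, against 24.2, 24.5, 25.2 and 24.3 CPM in WT, from 570 to 772 reads. The log2 fold change was -0.00013 (SE 0.0527, edgeR adjusted p = 1.0; fold 0.924 to 1.08). Its SD within genotypes, 0.026 on the log2 scale, was smaller than the 0.0568 that counting alone gives at its read numbers.

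Grin3a, whose subunit peaks in young animals and lowers calcium entry, had 60.0, 63.8, 66.5 and 66.6 CPM in T29-1 Cre, against 56.2, 60.6, 65.7 and 51.6 CPM in WT. The lowest 2 libraries were WT and the highest 2 were T29-1 Cre, with WT replicates 2 and 3 inside the T29-1 Cre range. Of the tested members it had the highest log2 fold change, 0.13 (SE 0.0693, unadjusted p = 0.0753, edgeR adjusted p = 0.998; fold 0.989 to 1.22). The value was 0.08 (SE 0.0555) without WT replicate 4 and 0.19 (SE 0.0651) without WT replicate 3, at adjusted p of 1.0 and 0.901.

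Grin3b, known from motor neurons, had 12, 6, 4 and 5 reads in T29-1 Cre, against 4, 6, 6 and 7 reads in WT, and was not tested for its low counts. Its libraries overlapped. With no filter on low counts its log2 fold change was 0.25 (SE 0.5), with a 95% interval of -0.76 to 1.26. Differences within that interval are not excluded at this depth.

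**Figure D2:**
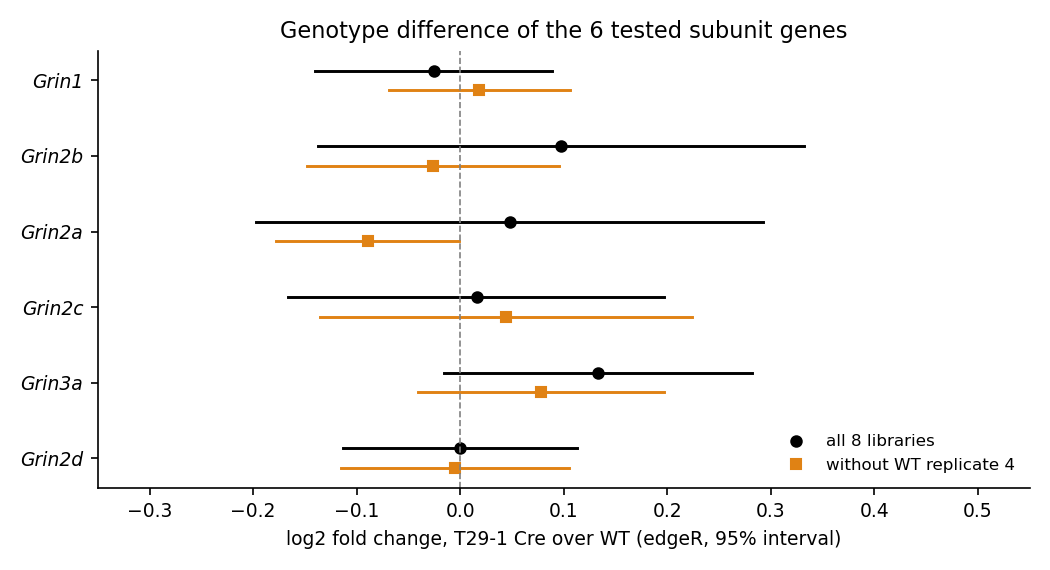
Log2 fold change of T29-1 Cre over WT (x axis) with its 95% interval from edgeR for the 6 tested subunit genes, with all 8 libraries (black circles) and without WT replicate 4 (orange squares). Every interval with 8 libraries includes 0, and Grin1, Grin2a and Grin2b change sign when WT replicate 4 is left out.

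In the authors' deposited table, the log2 fold changes were -0.03 for Grin1, 0.05 for Grin2a, 0.10 for Grin2b, 0.02 for Grin2c and 0.13 for Grin3a. Grin3b stood at 0.25 in the authors' deposited table and Grin2d at 6.81e-06. The smallest p of the 7 in the authors' deposited table was 0.0747, for Grin3a.

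Because the GluN2 subunit sets the kinetics of the channel, the GluN2 genes were set against each other within each library. They are given as shares of their summed CPM per kb. These are shares of mRNA over all cells of the tissue, and the make-up of the receptors was not measured. Grin2a made up 32.5%, 32%, 31.9% and 32.6% in T29-1 Cre, against 34.4%, 33.2%, 33.2% and 28.3% in WT. WT replicate 4 lay below and the other WT libraries above the 4 T29-1 Cre libraries. Grin2b made up 41.1%, 42.2%, 41.6% and 45.5% in T29-1 Cre, against 43.4%, 40.6%, 43.3% and 37.9% in WT, so that its ranges overlapped.

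The share of Grin2c was 20.1 ± 2.21% in T29-1 Cre and 21.1 ± 4.46% in WT (SD, n = 4 each), from 16.8% in T29-1 Cre replicate 4 to 27.3% in WT replicate 4. Grin2d held 5.06 ± 0.261% in T29-1 Cre and 5.34 ± 0.769% in WT. Without WT replicate 4, the WT shares were 33.6 ± 0.704% for Grin2a, 42.4 ± 1.61% for Grin2b, 19.0 ± 2.03% for Grin2c and 4.96 ± 0.0315% for Grin2d (SD, n = 3).

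The log2 ratio of the Grin2a to the Grin2b level per kb was -0.40 ± 0.0591 in T29-1 Cre and -0.36 ± 0.0562 in WT (SD, n = 4 each), with ranges of -0.48 to -0.34 and -0.42 to -0.29 that overlap. In WT replicate 4 the ratio was -0.42, although both genes were at their lowest there. The level per kb of Grin1 over the summed GluN2 genes was 0.982 ± 0.0227 in T29-1 Cre and 1.06 ± 0.235 in WT, and WT replicate 4 alone stood at 1.41, against 0.924 to 0.996 in the other WT libraries. Grin3a stood at 7.30 ± 0.153% of the Grin1 level in T29-1 Cre and 6.58 ± 1.02% in WT, with overlapping ranges. These shares and ratios depend on the length used. The Grin1 to GluN2 and Grin3a to Grin1 ratios were taken with merged exons only. Over 8 libraries Grin1 averaged 72.3 CPM per kb with merged exons, 163.9 with transcript length and 243.4 with coding length. In the same order Grin2b averaged 30.1, 31.1 and 168, and Grin3a 5.0, 8.19 and 18.0. The coding length was tried after the data were seen. With it the share of Grin2b was 58.2% and that of Grin2c 6.96% (mean of 8 libraries), against 42.0% and 20.6% with merged exons. It divides the counts of the whole gene, untranslated parts included, so these are not shares of coding reads. The transcript is 24.06 kb against a coding length of 4.449 kb for Grin2b, and 4.895 kb against 3.72 kb for Grin2c.

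**Figure D3:**
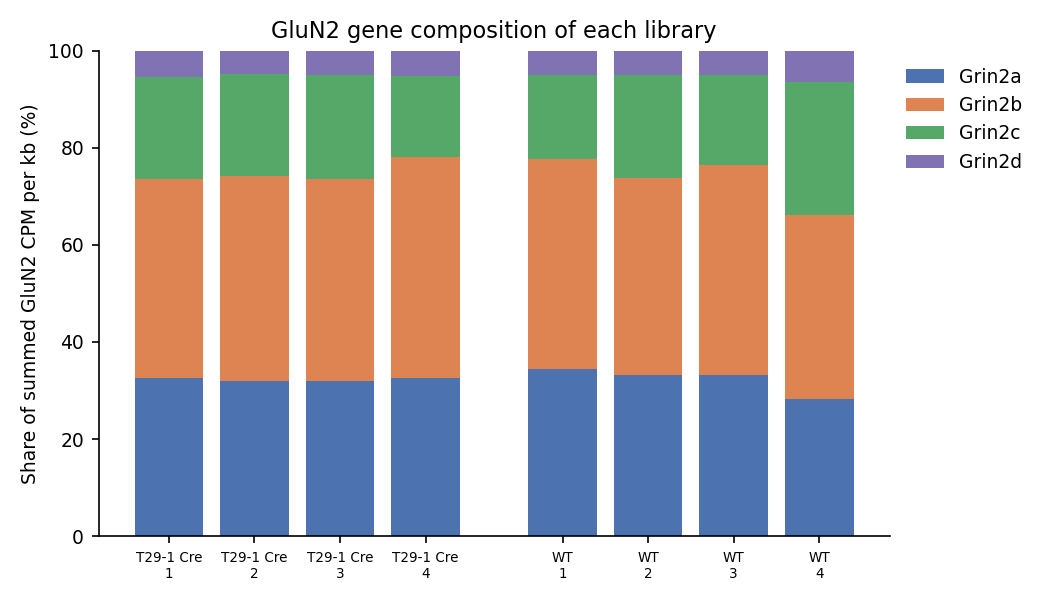
Share (%) of each GluN2 gene in the summed CPM per kb of Grin2a to Grin2d, with 1 bar per library, the T29-1 Cre libraries on the left and the WT libraries on the right. Grin2b is the largest part in every library, and WT replicate 4 has the smallest Grin2a part (28.3%) and the largest Grin2c part (27.3%).

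For Grin1, Grin2a and Grin2b, the library farthest from its genotype mean was WT replicate 4. For Grin3a, WT replicate 3 (65.7 CPM) and WT replicate 4 (51.6 CPM) lay about equally far from the WT mean (58.5 CPM), on opposite sides. The differences of WT replicate 4 did not go one way. Against the mean of the other 3 WT libraries the difference in log2 CPM was -0.65 for Grin2a, -0.57 for Grin2b, -0.23 for Grin3a and -0.02 for Grin2d. It was 0.17 for Grin1 and 0.12 for Grin2c. The other 3 WT libraries spanned 0.0588 for Grin2a, 0.155 for Grin2b, 0.226 for Grin3a, 0.105 for Grin1 and 0.305 for Grin2c, so that the Grin2c difference lies within their spread. Only 0.994% of genes at 5 CPM or more with a known length had a lower value than Grin2a in this library, and 1.54% a lower one than Grin2b.

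Transcript length moved with these values, and its part in them was not tested. The longest coding transcripts are 24.1 kb for Grin2b, 14.6 kb for Grin2a and 7.49 kb for Grin3a, against 5.43 kb for Grin2d, 4.89 kb for Grin2c and 4.28 kb for Grin1. Over all genes of over 10 kb the median difference of WT replicate 4 was -0.38 (335 genes), and over those of up to 2 kb it was 0.18 (2285 genes). GC content ran with length among the members, at 44.8% for Grin2a, 45.7% for Grin2b and 49.2% for Grin3a, against 59.4% for Grin1, 62.1% for Grin2c and 65.0% for Grin2d. Without this library the SD within genotypes on the log2 scale was 0.0551 for Grin2a and 0.102 for Grin2b, against 0.237 and 0.224 with it. For Grin2c this SD was 0.158 with and 0.168 without the library. With all 8 libraries, the median SD of all 11502 tested genes at 5 CPM or more was 0.0951. That median was not computed without WT replicate 4, so only the SDs with the library can be set beside it.

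**Figure D4:**
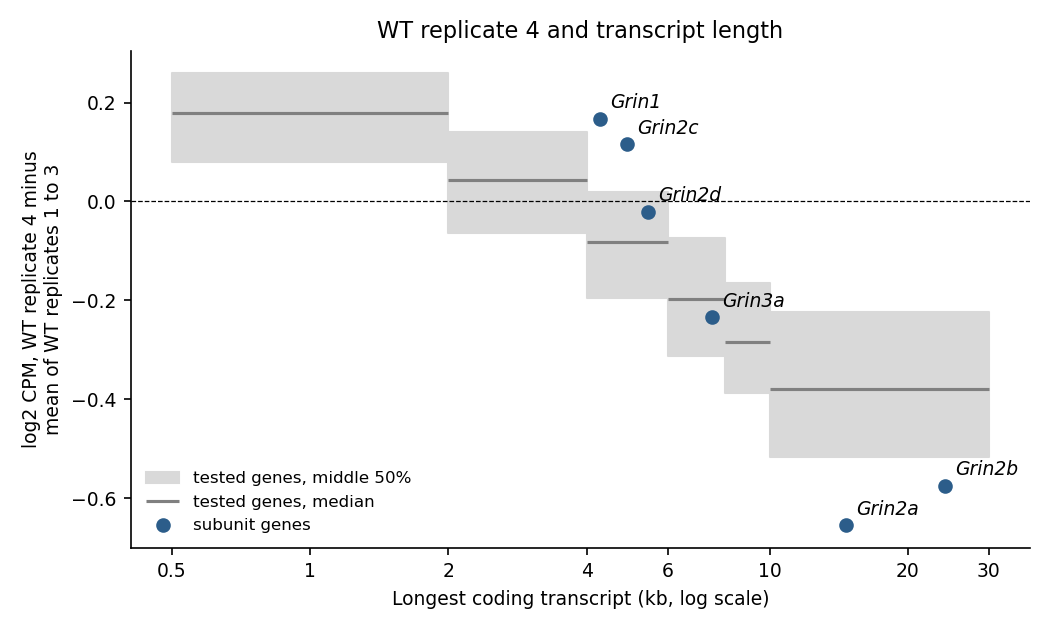
Difference in log2 CPM between WT replicate 4 and the mean of WT replicates 1 to 3 (y axis) against the length of the longest coding transcript (kb, log scale), for the 6 tested subunit genes (points) and for all tested genes at 5 CPM or more in 6 length classes (grey boxes, middle 50% of genes; lines, medians; the first class also holds shorter genes). The class medians run from 0.18 to -0.38 with length, Grin1 and Grin2c lie above the box of their class, and Grin2a and Grin2b lie below theirs.

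The genes that act around the receptor were taken by role. Of 88 genes in 6 lists by role, 87 were tested and 0 were called in either direction by edgeR, DESeq2 or limma-voom, with 5 at an unadjusted p under 0.05 in each. That count was 2 without T29-1 Cre replicate 3 and 3 without T29-1 Cre replicate 2 or WT replicate 2. It was 4 without T29-1 Cre replicate 1 or WT replicate 4, 6 without WT replicate 1 and 9 without WT replicate 3. The 5 of edgeR stand beside the 2.43% of all tested genes at an unadjusted p under 0.05. The log2 fold changes of the 87 tested genes were above 0 for 48 and below 0 for 39, with a median of 0.01. The signs, medians and fold changes by list below are from the fit of all 8 libraries, WT replicate 4 included. They are not given without that library.

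Among 19 tested genes that supply or clear glutamate and the co-agonists, 10 values were above and 9 below 0 (median 0.01), and Dao was not tested. Slc1a2, the main glial glutamate transporter, had the highest level of the list, at 3085 ± 22.6 CPM in T29-1 Cre and 2849 ± 459 CPM in WT (SD, n = 4 each). Its log2 fold change was 0.11 (SE 0.091). Slc17a7, which loads glutamate into vesicles, was next in level, with a log2 fold change of -0.03 (SE 0.0612). The smallest p were those of serine metabolism genes, Psph at -0.17 (SE 0.107), which makes L-serine, and Shmt1 at 0.17 (SE 0.131), which interconverts serine and glycine.

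Of 17 scaffold and trafficking genes, 9 values were above and 8 below 0 (median 0.01), and for 2 of them the libraries of the genotypes did not overlap, beside 1.81% of all tested genes. Dlg4, which encodes the scaffold PSD-95 that holds GluN2 tails at the synapse, was at 875 ± 11.6 CPM in T29-1 Cre and 892 ± 15.7 CPM in WT (SD, n = 4 each). Its log2 fold change was -0.03 (SE 0.0407). Nefl, a neurofilament gene whose protein binds GluN1, stood at -0.01 (SE 0.0531). Kif17, the motor that carries GluN2B vesicles along dendrites, had 23.0 ± 0.79 CPM in T29-1 Cre and 25.6 ± 1.15 CPM in WT (log2 fold change -0.16, SE 0.0581, unadjusted p = 0.016). Lin7a, an adaptor in that cargo complex, had 59.9 ± 3 CPM in T29-1 Cre and 52.4 ± 5.95 CPM in WT (0.19, SE 0.0745, unadjusted p = 0.023), with no overlap between the genotypes. The other gene without overlap was Apba1, an adaptor of the same complex, named after its value was seen (0.10, SE 0.0485, unadjusted p = 0.0682). Kif17 and Lin7a had an edgeR adjusted p of 0.998, and lie on opposite sides of 0.

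The kinase and phosphatase list had 22 tested genes, 9 above and 13 below 0 (median -0.02). Camk2a, whose promoter drives the transgene, was at 4493 ± 160 CPM in T29-1 Cre and 4567 ± 191 CPM in WT (SD, n = 4 each). Its log2 fold change was -0.02 (SE 0.048). Ppp3ca, a catalytic subunit gene of calcineurin, stood at -0.07 (SE 0.0476) and Camk2b at -0.08 (SE 0.0446). Camk2d, a minor isoform in neurons, had 47.8 ± 7.77 CPM in T29-1 Cre and 39.7 ± 2.38 CPM in WT, with overlapping libraries (0.27, SE 0.0936, unadjusted p = 0.0135, edgeR adjusted p = 0.998).

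Downstream of the channel, 8 of 15 genes had values above and 7 below 0 (median 0.01). Calm3, a calmodulin gene, stood at -0.08 (SE 0.0585), and Nos1, the nitric oxide synthase tethered to the receptor through PSD-95, at 0.15 (SE 0.0729). Of 12 membrane and extracellular partners, 10 had values above and 2 below 0 with all 8 libraries, with a median of 0.09, the highest of the 6 lists. The smallest p there belonged to Drd1, a dopamine receptor (0.35, SE 0.151, at 4.27 ± 0.746 CPM in T29-1 Cre and 3.36 ± 0.45 CPM in WT), and to Reln, a secreted protein of interneurons (0.16, SE 0.0725). Each had an edgeR adjusted p of 0.998. Grm5 stood at 0.11 (SE 0.0839) and Grina at -0.03 (SE 0.0459). Grid1, a delta glutamate receptor gene, stood at 0.06 (SE 0.0459).

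**Figure D5:**
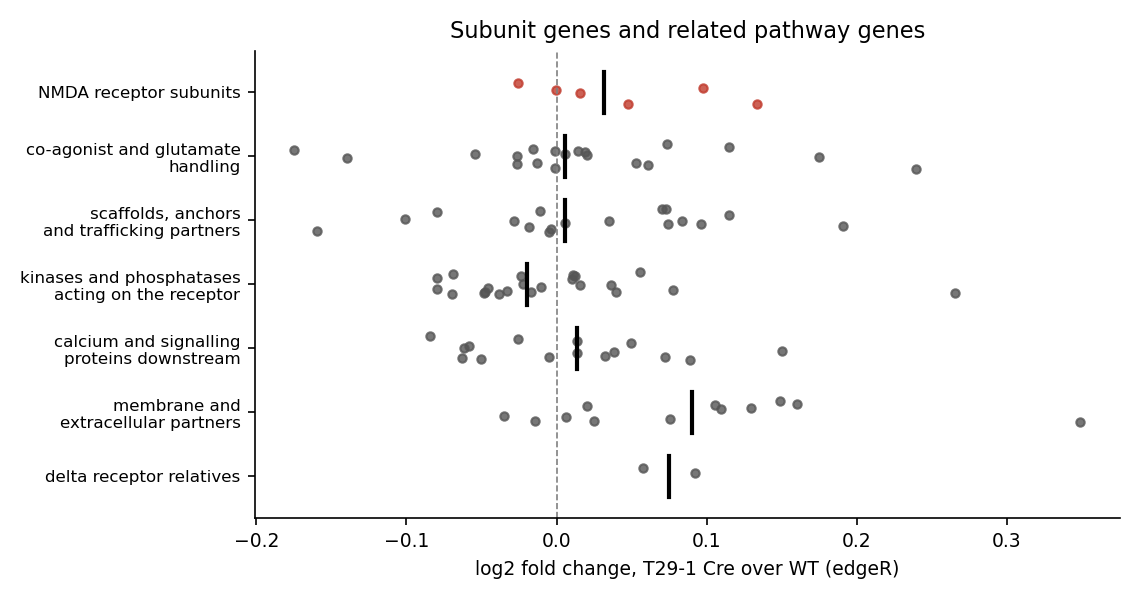
Log2 fold change of T29-1 Cre over WT (x axis) for the 6 tested subunit genes (red) and the tested genes of the 6 role lists (grey), with 1 point per gene and a black line at the median of each row. The medians lie between -0.02 and 0.09, and no point is past the threshold of the test.

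For each tested member, the genes whose levels followed it most closely over the 8 libraries were taken by the Pearson r of log2 CPM after removing the genotype means, among 11501 others at 5 CPM or more. These r are high by selection and are given as a description, and several ranks rest on WT replicate 4. Grin2b ran closest to Pclo, which encodes a large active zone protein (r = 0.998 over 8 libraries, 0.991 over 7 without WT replicate 4, where it ranked 2), then Dnajc13 and Nrip1. Grin2a ran closest to Arfgef3 (0.997, and 0.948 without that library), then Tnr, an extracellular matrix gene, and Dpp8. Without that library Arfgef3 ranked 47, Tnr 5 and Dpp8 37 for Grin2a. The transcripts of the 6 genes are of 20.1 kb for Pclo, 14.6 kb for Arfgef3, 12.2 kb for Tnr, 8.01 kb for Dnajc13, 7.87 kb for Nrip1 and 4.81 kb for Dpp8.

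Grin1 ran closest to Ints1 (0.979, and 0.946 without WT replicate 4), then Arfgap2 and Sema4a. Without that library Ints1 ranked 26, Arfgap2 36 and Sema4a 5 for Grin1. For Grin2c it was Ewsr1, an RNA-binding protein gene (0.971, and 0.999 without WT replicate 4, still rank 1), then Zfp740 and Nop56. For Grin2d it was Ppp3cb, a calcineurin subunit gene of the kinase and phosphatase list (0.975), then AW551984 and Nefm. Without WT replicate 4 Ppp3cb had 0.973 and ranked 16, AW551984 ranked 2 and Nefm 63. The SD of Grin2d within genotypes (0.026 on the log2 scale) was below the 0.0568 of counting alone. Its likeness to these genes may therefore be counting noise. For Grin3a the closest was RP24-68G17.4 (0.991, and 0.986 without WT replicate 4, where it ranked 2), then Rnf24 and Zmpste24. No gene was among the closest 3 of more than 1 member.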

How the data were processed

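STAR 2.6.1d, featureCounts, edgeR 3.11 and the build GRCm38 are named per the submitters' processing notes. Per the labels' protocols, poly(A) RNA from 500 ng of total RNA was made into directional libraries and sequenced as paired reads of 150 bases on 1 lane. Annotation, strand setting and multi-mapping rule: not given in the sources used here. Unscaled whole-number counts per gene name were deposited by the authors. A deposited table of genotype differences gives, per gene, the log2 and signed fold change, mean log2 CPM, mean CPM and unadjusted p-value.

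Counts were analysed in R 4.3.3 with edgeR 4.0.16 (filterByExpr, minimum count 10, minimum total 15, TMM scaling, glmQLFit and glmQLFTest, no covariate), with Benjamini-Hochberg adjustment over all 15996 tested rows and a threshold of 0.05. The SE is the size of the log2 fold change over the square root of F, and intervals are at 95%. CPM uses TMM-scaled library sizes, and log2 CPM a prior count of 2. Intervals cover the spread between libraries. Replicates all differed by more than counting noise (chi-square over its degrees of freedom, 3.16 to 17.8). Lengths, positions and transcript sequences are from GENCODE M21 (GRCm38), and coding length is the longest open reading frame of the longest coding transcript. The scripts were tested on simulated data.

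The members and lists were chosen with earlier results of these data known. Genes named by rule were the 7 members, St6gal2, Camk2a, the 2 genes with the smallest p and the 2 most abundant of each role list, and the 3 genes closest to each tested member. Overlapping genes, cell type markers (Ttr, Gabra6, Barhl1, Cbln3), the untested Dao and Apba1 are named outside it, Ttr and Apba1 after their values were seen. Some genes and sequences under this rule are not reported here. The results were recomputed with limma-voom (limma 3.58.1), DESeq2 1.42.0, 3 other scalings, 2 other filters, a replicate block, each library left out in turn, and other lengths.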

Additional observations from a re-analysis of the deposited data

Results flagged for a closer look

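In each genotype of 4 libraries, 12 measures of the members (CPM, shares of the GluN2 sum and the Grin2a to Grin2b ratio) were searched for 1 library distant from its group. This was so in 4 of the 24 groups. About 1 in 20 would arise by chance if groups were independent, which these are not. Grin1 was at 657 CPM in T29-1 Cre replicate 1, with the other T29-1 Cre libraries at 706 to 709 CPM. In WT replicate 4, Grin2a was at 285 CPM, with the other WT libraries at 438 to 457 CPM. The Grin2c share of the GluN2 sum was 16.8% in T29-1 Cre replicate 4 (20.96% to 21.6% in the others). The Grin2d share was 6.496% in WT replicate 4 (4.93% to 4.99% in the others). Grin2d itself was at 24.3 CPM there, with the other WT libraries at 24.2 to 25.2 CPM.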

How the results depend on the processing

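In each of the 16 alternative fits, 0 members were called. At an unadjusted p under 0.05 there was 1 member in 4 of them, Grin2a (lower) without WT replicate 4 and Grin3a (higher) with no filter, without T29-1 Cre replicate 1 and without WT replicate 3. Leaving out each library in turn, the log2 fold change ran from -0.0573 to 0.0185 for Grin1, -0.0895 to 0.106 for Grin2a, -0.026 to 0.168 for Grin2b, -0.0443 to 0.0886 for Grin2c, -0.0131 to 0.0125 for Grin2d and 0.0784 to 0.194 for Grin3a. Grin2d, close to 0 throughout, turned positive with DESeq2 size factors in edgeR (0.00089), with a filter at a mean of 1 CPM (0.00073) and with the DESeq2 Wald test (0.00064). Over all genes, 2 were called instead of 1 with no filter and 2 with the replicate block, Ttr joining St6gal2 in both. The replicate numbers did not pair the libraries (r of same-numbered deviations -0.141 to 0.126), the block called 0 members (Grin3a 0.14, adjusted p = 0.997), and it is not read further. With the longest coding transcript as the length, the GluN2 shares were 35.8% for Grin2a, 39.2% for Grin2b and 5.78% for Grin2d. With CPM alone Grin2b, Grin2c and Grin2d held 59.2%, 5.93% and 1.98%, and 5 of 7 members kept their rank. With the coding length as the divisor of whole-gene counts, added after the data were seen, they held 58.2%, 6.96% and 2.17%. The pathway lists had 0 calls in all 16 alternatives. Grin3b could be fitted only with no filter, and its depth, 4 to 12 reads, limits any statement on its level.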
